A study of Drosophila melanogaster with 6 samples.

Results

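The genes described here encode the cell-surface and secreted proteins that guide axons and match olfactory neurons to their targets. They are all genes in the deposited counts whose FlyBase symbol belongs to the Beat (*beat-*), Side (*side*), Kekkon (*kek*), Robo, Dscam or Semaphorin families, together with 20 named receptors, ligands and adhesion molecules. The rule found 60 genes among 17698, and 54 of the 60 had enough reads to be tested. The rule works on symbols alone, but it was drawn up with earlier results of these data known.

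RNA was sequenced from whole antennae of adult female *Drosophila melanogaster*, the main olfactory organ of the fly, at 2 to 5 days of age. There were 3 Control and 3 E93RNAi samples, and each pair of replicates came from 350 females reared side by side at 25 °C. Both genotypes carried *peb*-Gal4 and UAS-Dcr2. The Gal4 driver is widely used for olfactory receptor neurons, and Dicer-2 strengthens RNA interference. The knockdown targets *Ecdysone-induced protein 93F* (*Eip93F*, E93), a transcriptional regulator switched on by ecdysone, the moulting steroid. The genotype text in the labels gives UAS-E93KK108140 for the control and VIE-260B for E93RNAi, the reverse of what the sample titles say. Samples were grouped by their titles, which match the knockdown tag in each sample. If the genotype text were right instead, every direction given below would turn.

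Olfactory receptor neurons have their cell bodies in the antenna and send axons to glomeruli of the brain. Receptors on the growth cone read secreted cues such as Slit, Netrin and Semaphorins, while homophilic adhesion molecules and teneurins sort axons and match them to partner cells. This wiring is laid down in the pupa, so the adult antenna holds the transcripts that remain or are used after wiring. Most members are known from work on the embryo, the visual system or the developing antennal lobe.

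Gene totals were 16639918 to 18400979 reads per library, with correlations of log2 levels of 0.995 to 0.997 among replicates and 0.971 to 0.973 across the groups. The targeted gene *Eip93F* gave 6070, 6993 and 6875 reads in Control replicates 1 to 3, against 5954, 6021 and 5876 in E93RNAi replicates 1 to 3. Its log2 fold change was -0.19 ± 0.0484 (SE; adjusted p = 0.0119, edgeR), so the transcript differed little between the groups. Gene counts cannot separate hairpin reads from the endogenous transcript, so this gene does not settle the labels. *w* (*white*), a form of which marks many fly transgenes, gave 17653 to 20248 reads in the Control libraries and 105857 to 107145 under E93RNAi (log2 fold change 2.45 ± 0.0478 SE, adjusted p = 6.25e-12, edgeR). Levels below are in CPM, counts scaled to library size with TMM factors. A log2 fold change compares E93RNAi with Control, and a gene is called where its adjusted p-value (Benjamini-Hochberg over all tested genes) is below 0.05 in the quasi-likelihood test of edgeR.

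Wiring genes were widely altered in E93RNAi antennae, in both directions and mostly by small amounts. Of the 54 tested members 36 were called, 21 higher and 15 lower. Among all tested genes 24.3% were called, 13.8% higher and 10.5% lower, against 66.7% of the tested members. For tested genes that averaged 100 counts or more the share was 24.5%, and it was 70.2% for the 47 members of that depth. The median absolute log2 fold change was 0.30 over tested members and 0.11 over all tested genes. The signed medians were 0.081 and 0.00028. Among the 47 members of at least 100 counts, 21 were called higher and 12 lower.

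Members are long genes, with a median span of 41.7 kb in the annotation against 2.90 kb for all tested genes. Long genes were called more often in general: 41.8% of tested genes that span at least 20 kb passed the threshold, against 61.9% of the 42 tested members of that span. Of the 12 tested members that span less than 20 kb, 10 were called (83.3%), against 24.3% of all tested genes. The latter share covers genes of every span and is not matched to these members by length. The 3 Control and 3 E93RNAi values did not overlap in any of the 36 called members, a separation that calling itself favours. They did not overlap in 41 of 54 tested members (75.9%), against 37.5% of all tested genes. A called log2 fold change of 0.5 or more in size was seen in 15 members, 8 higher and 7 lower, which is 27.8% of tested members against 9.48% of tested genes. The larger called changes, of at least 1, were 3 falls, in *CadN2*, *Dscam2* and *Dscam4*. They made up 5.56% of the tested members, close to the 5.01% of all tested genes with a change of that size.

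Markers of cell types moved with the groups as well. Of 7 neuronal markers 2 were lower, the olfactory co-receptors *Orco* (log2 fold change -0.20, adjusted p = 0.00357, edgeR) and *Ir25a* (-0.30, adjusted p = 0.000148, edgeR), and the summed level was 5844 to 6027 CPM in Control and 5292 to 5521 CPM in E93RNAi. *Orco* was the largest part of this sum, with means of 3314 CPM in Control and 2888 CPM in E93RNAi. The general neuronal markers *elav*, *nSyb*, *Syt1*, *brp* and *Rdl* were not called, with log2 fold changes of -0.082 to 0.091. Of 6 glial markers *repo*, *moody*, *nrv2*, *Eaat1* and *wrapper* were higher by 0.37 to 2.19 on the log2 scale, while *Gs2*, by far the most abundant, was lower (-0.23), with sums of 3189 to 3293 CPM in Control and 2946 to 3043 CPM in E93RNAi. Of 6 muscle markers 3 were tested and 2 were higher, with sums of 25.1 to 29.8 CPM in Control and 34.1 to 50.2 CPM in E93RNAi. The muscle gene *Mhc* gave 42, 11 and 32 reads in the Control libraries, against 205, 22 and 222 under E93RNAi. Of 4 hemocyte markers *Pxn* was higher (1.47), while *Hml* (-0.26), *NimC1* (-0.18) and *srp* (-0.032) were not called. The 4 summed to 22.8 to 27.0 CPM in Control and 29.5 to 39.9 CPM in E93RNAi. The rise in this sum was that of *Pxn*, with means of 6.83 CPM in Control and 18.9 CPM in E93RNAi. Of 3 markers of sensory support cells *Su(H)* was lower (-0.28) and *nompA*, which encodes a matrix protein that joins sensory dendrites to the cuticle, was higher, with 123, 127 and 130 reads in the Control libraries against 1068, 1316 and 1276 under E93RNAi (log2 fold change 3.23, adjusted p = 3.11e-11, edgeR). The 3 support-cell markers summed to 411 to 422 CPM in Control and 416 to 439 CPM in E93RNAi. Of 6 eye markers 3 were tested, *ninaC* and *trp* were higher (1.16 and 0.75) and *norpA* lower (-0.24), with sums of 328 to 357 CPM in Control and 287 to 309.7 CPM in E93RNAi. Nearly all of this sum was *norpA*, with means of 339 CPM in Control and 287 CPM in E93RNAi. Of 5 markers of brain neurons *Vmat* was higher (0.73) and *ple* was not called (-0.10). The 5 summed to 273 to 313 CPM in Control and 332 to 400.2 CPM in E93RNAi. *ple* and *Vmat* held nearly all of this sum (means of 155 and 131 CPM in Control), while *Gad1*, *VGlut* and *Tdc2* had 0 to 5 reads per library. Of 3 epidermal markers *pot* was higher (0.40), *grh* was not called (-0.062) and *Cpr65Ec* was not tested. The 3 summed to 151 to 159 CPM in Control and 163 to 178 CPM in E93RNAi. Means in Control and E93RNAi were 66.7 and 88.0 CPM for *pot*, and 87.7 and 84.1 CPM for *grh*. Of 4 fat body markers 0 were called in edgeR or DESeq2 and 0 had an unadjusted p below 0.05 in edgeR. The eye opsin *ninaE* had 1 to 5 reads in every library, and no listed marker was at 0 in all 6 libraries. The part of these shifts in the changes of wiring genes was not tested. In whole antennae, fewer cells of a type and less RNA per cell cannot be told apart.

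**Figure D1:**
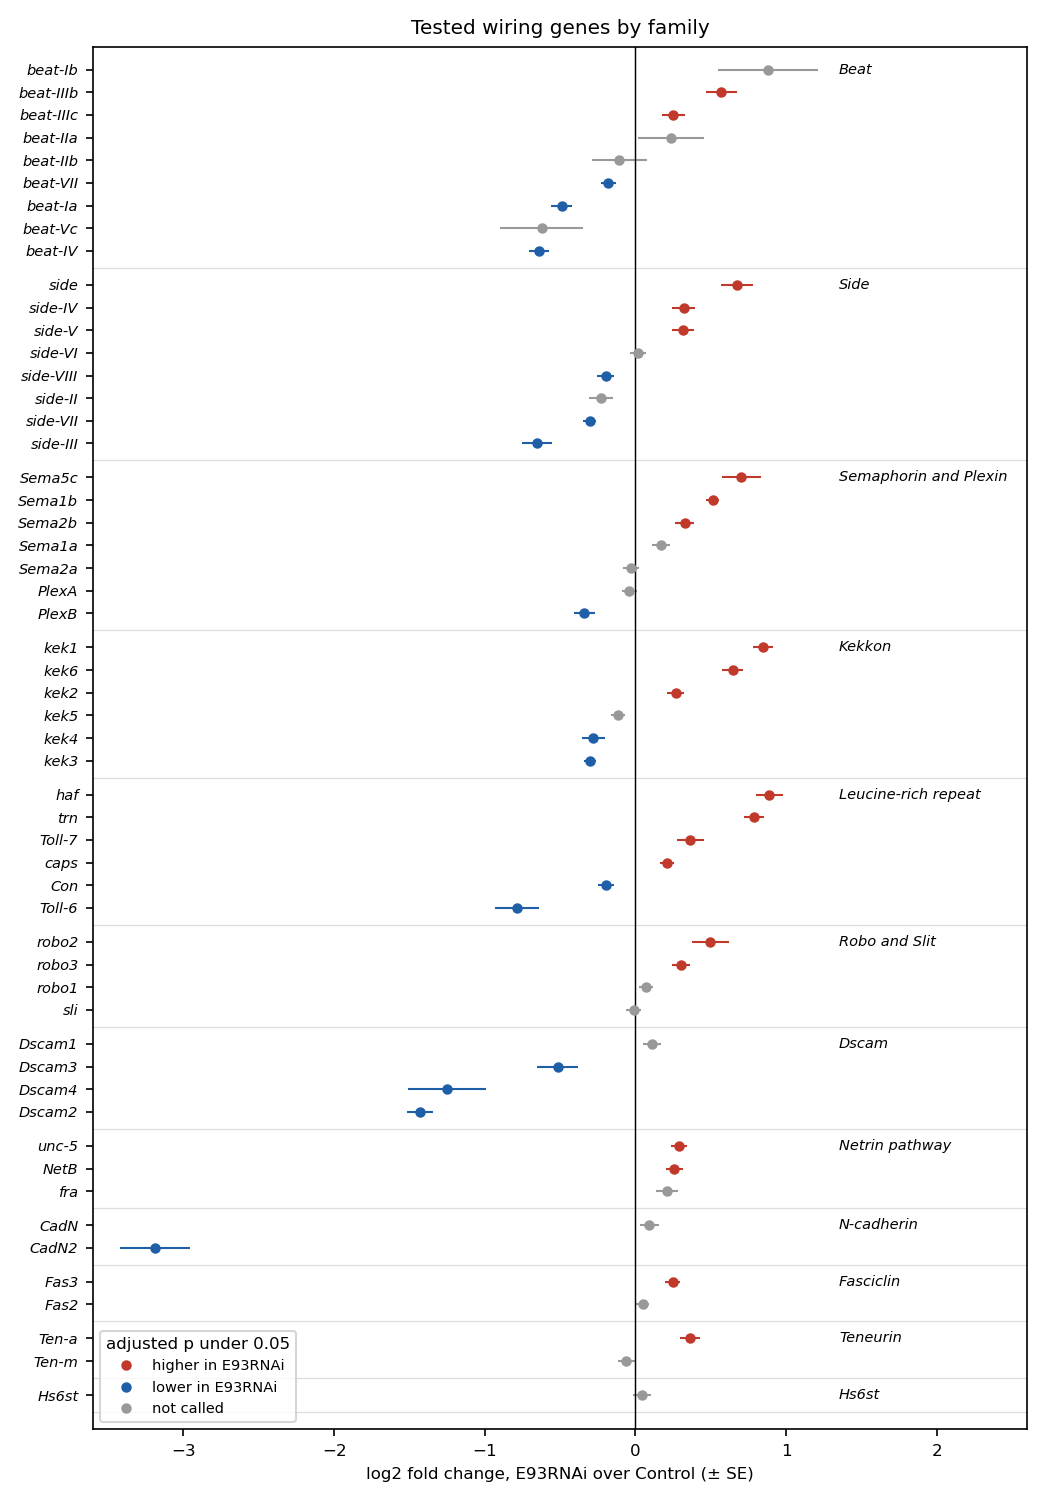
Log2 fold change of E93RNAi over Control (x axis, with SE) for the 54 tested members, grouped by family; red and blue points passed an adjusted p-value of 0.05 in edgeR and grey points did not. *CadN2* at -3.19 is the farthest from 0, 3 of the 4 Dscam genes are on the left, and most other families hold members on both sides.

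The N-cadherins are large homophilic adhesion proteins. *CadN*, which is needed for olfactory axons to form glomeruli, is the broadly expressed member, and *CadN2* is its shorter neighbour. *CadN2* (FBgn0262018; BDGP6, 2L:17786971-17875247, minus strand) gave 84, 88 and 107 reads in Control replicates 1 to 3, against 7, 10 and 14 in E93RNAi replicates 1 to 3. Every E93RNAi library was far below every Control library. The level was 5.33 ± 0.460 against 0.576 ± 0.175 CPM (SD, n = 3), 9.11-fold lower (log2 fold change -3.19 ± 0.235 SE, adjusted p = 8.25e-07, edgeR). *CadN* lies 8.63 kb away on the same strand and gave 3027, 3588 and 3361 reads in the Control libraries, against 3657, 3803 and 3411 under E93RNAi. Its groups overlapped (log2 fold change 0.093 ± 0.0626 SE, adjusted p = 0.345, edgeR). Per kb of exon, *CadN2* stood at 0.0442 to 0.0574 of the level of *CadN* in the Control libraries and at 0.00345, 0.00474 and 0.0074 in the E93RNAi libraries.

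Dscam proteins are immunoglobulin-superfamily receptors that let a neuron recognise and avoid its own branches or those of like cells. *Dscam2* (FBgn0265296; BDGP6, 3L:7159199-7189931, minus strand), known for tiling in the visual system, gave 838, 979 and 937 reads in the Control libraries, against 386, 345 and 315 under E93RNAi. The groups were well apart, at 52.8 ± 2.77 and 19.7 ± 2.78 CPM (SD, n = 3), 2.69-fold lower in E93RNAi (log2 fold change -1.43 ± 0.0856 SE, adjusted p = 1.33e-07, edgeR). *Dscam4* gave 40, 39 and 35 reads in the Control libraries, against 12, 15 and 22 under E93RNAi, and fell by 1.25 ± 0.259 SE on the log2 scale (adjusted p = 0.00338, edgeR). It is a low transcript, and its highest E93RNAi count was still below its lowest Control count. *Dscam3* gave 109, 152 and 154 reads in the Control libraries, against 98, 90 and 108 under E93RNAi (log2 fold change -0.52 ± 0.137 SE, adjusted p = 0.0148, edgeR). Its Control replicate 1 lay close to the E93RNAi libraries in counts. The call for *Dscam3* was lost without Control replicate 2 (-0.45, adjusted p = 0.0643), Control replicate 3 (-0.47, adjusted p = 0.0679) or E93RNAi replicate 2 (-0.45, adjusted p = 0.0569, all edgeR). The family's most abundant transcript per length, *Dscam1*, which makes a very large set of splice isoforms for self-avoidance, gave 2713, 3255 and 3127 reads in the Control libraries, against 3192, 3589 and 3250 under E93RNAi and was not called (log2 fold change 0.11 ± 0.0575 SE, adjusted p = 0.213, edgeR). Gene counts do not show isoforms. The merged exons of *Dscam1* hold 26496 bases over 75 annotated transcripts, so its level per kb is lowered by exons that not every transcript carries. In CPM, not scaled to length, the Control mean was 174 for *Dscam1* and 52.8 for *Dscam2*.

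**Figure D2:**
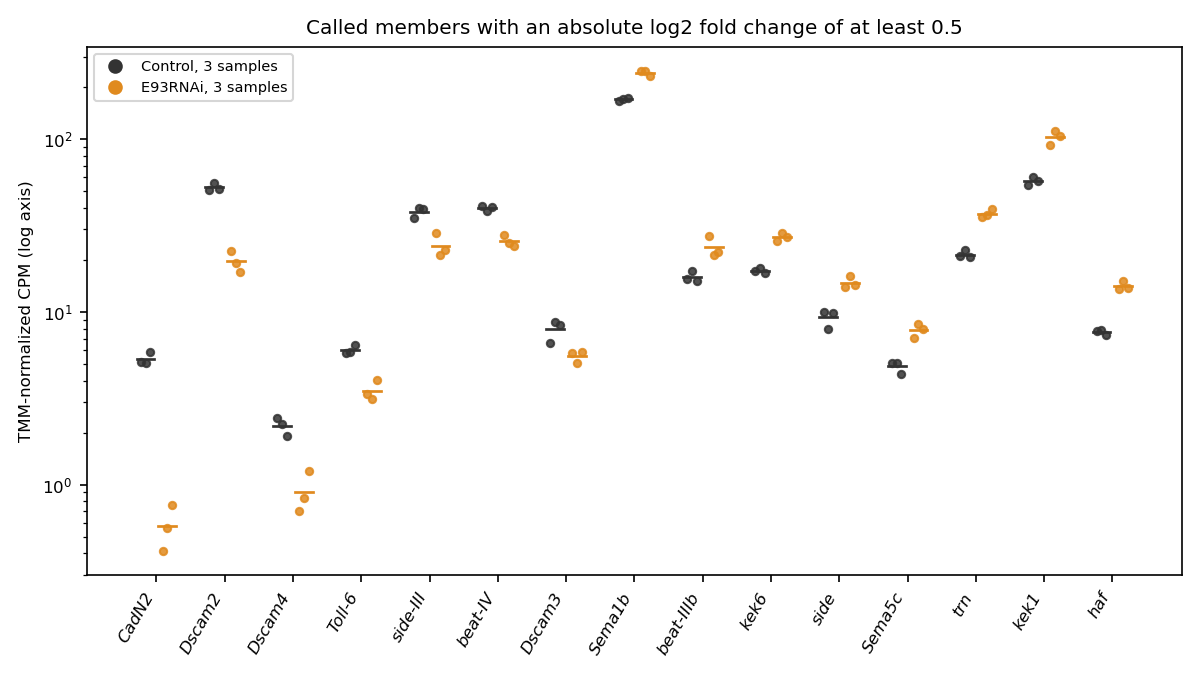
TMM-normalized CPM (log axis) in each of the 6 samples for the 15 called members with an absolute log2 fold change of at least 0.5, ordered by fold change; points are samples and short lines are group means. In all 15 genes the 3 Control points and the 3 E93RNAi points do not overlap, from *CadN2* at 5.33 against 0.576 CPM to *haf* at 7.63 against 14.1 CPM.

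Apart from the Kekkon family and Slit, both described below, the 6 leucine-rich repeat members were all called, 4 higher and 2 lower. *haf* (hattifattener; FBgn0261509; BDGP6, 2L:1555129-1609389, plus strand) had the largest called rise of all members. It gave 127, 137 and 134 reads in the Control libraries, against 233, 270 and 252 under E93RNAi, 1.85-fold higher (log2 fold change 0.89 ± 0.0920 SE, adjusted p = 1.60e-05, edgeR). *trn* (Tartan; FBgn0010452) gave 346, 397 and 377 reads in the Control libraries, against 601, 648 and 729 under E93RNAi (log2 fold change 0.79 ± 0.0680 SE, adjusted p = 3.39e-06, edgeR). *trn* and its paralogue *caps* (Capricious), which sort projection-neuron dendrites in the antennal lobe, lie 110.6 kb apart on 3L. *caps* rose by less, from 138 ± 4.12 to 159 ± 7.47 CPM (SD, n = 3), with a log2 fold change of 0.21 ± 0.0466 (adjusted p = 0.00549, edgeR; ± SE).

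The Toll receptors Toll-6 and Toll-7 act as neurotrophin receptors in the fly nervous system and in glomerular targeting, and they moved in opposite directions. *Toll-6* gave 95, 103 and 117 reads in the Control libraries, against 57, 56 and 74 under E93RNAi (log2 fold change -0.78 ± 0.148 SE, adjusted p = 0.00177, edgeR). *Toll-7* gave 448, 642 and 562 reads in the Control libraries, against 708, 715 and 751 under E93RNAi (log2 fold change 0.36 ± 0.0870 SE, adjusted p = 0.00828, edgeR). The Control libraries of *Toll-7* spread from 448 to 642 reads, yet none reached the E93RNAi libraries. *Con* (Connectin), a homophilic adhesion protein, was lower by -0.19 ± 0.0535 SE (adjusted p = 0.0191, edgeR). Its call was lost without Control replicate 2 (-0.17, adjusted p = 0.0683), E93RNAi replicate 1 (-0.15, adjusted p = 0.0608) or E93RNAi replicate 3 (-0.18, adjusted p = 0.0644, all edgeR).

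Kekkon proteins carry leucine-rich repeats and an immunoglobulin domain, and Kek1 is an inhibitor of the EGF receptor. Of 6 members, 3 were higher and 2 lower. *kek1* (FBgn0015399; BDGP6, 2L:12817000-12822787, minus strand) gave 887, 1050 and 1051 reads in the Control libraries, against 1578, 2001 and 1923 under E93RNAi, 1.8-fold higher (log2 fold change 0.85 ± 0.0674 SE, adjusted p = 1.63e-06, edgeR). The lowest E93RNAi library held 1578 of its reads and the highest Control library 1051. *kek6*, which encodes a presynaptic receptor for a neurotrophin, gave 283, 314 and 306 reads in the Control libraries, against 438, 512 and 498 under E93RNAi (log2 fold change 0.65 ± 0.0697 SE, adjusted p = 2.24e-05, edgeR). Exons of *kek6* overlap *pasha* on the same strand. *kek2* was higher by 0.27, *kek3* lower by -0.30 and *kek4* lower by -0.28 on the log2 scale. The call of *kek4* was lost without Control replicate 1 (-0.23, adjusted p = 0.0597), Control replicate 3 (-0.29, adjusted p = 0.0503), E93RNAi replicate 2 (-0.26, adjusted p = 0.0609) or E93RNAi replicate 3 (-0.25, adjusted p = 0.0661, all edgeR). *kek5* was not called (-0.12 ± 0.0474 SE, adjusted p = 0.102) and passed without Control replicate 1 (-0.15, adjusted p = 0.0451, edgeR).

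Beat and Side proteins are immunoglobulin-superfamily partners. Beaten path Ia sits on motor axons and binds Sidestep on their targets, and other family members bind each other in further combinations. In the antenna this founding couple moved apart. *beat-Ia* gave 407, 457 and 486 reads in the Control libraries, against 328, 330 and 324 under E93RNAi (log2 fold change -0.49 ± 0.0678 SE, adjusted p = 0.000172, edgeR). *side* gave 165, 139 and 180 reads in the Control libraries, against 237, 289 and 264 under E93RNAi (log2 fold change 0.67 ± 0.108 SE, adjusted p = 0.000546, edgeR). The ratio of *side* to *beat-Ia* per kb of exon was 0.0993, 0.0745 and 0.0907 in Control and 0.177, 0.214 and 0.199 in E93RNAi.

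Of the 14 Beat genes 9 were tested, with 2 higher and 3 lower. *beat-IV* (FBgn0039089; BDGP6, 3R:23557412-23580077, plus strand) gave 673, 667 and 743 reads in the Control libraries, against 475, 448 and 442 under E93RNAi (log2 fold change -0.64 ± 0.0672 SE, adjusted p = 1.75e-05, edgeR). *beat-IIIb* gave 255, 301 and 277 reads in the Control libraries, against 472, 380 and 412 under E93RNAi (log2 fold change 0.57 ± 0.101 SE, adjusted p = 0.00117, edgeR). Its cluster mate *beat-IIIc* was higher by 0.25 (adjusted p = 0.0319, edgeR), while *beat-IIIa*, which lies between them on 2L, had 0 counts in all 6 libraries. In the annotation used here all 4457 exon bases of *beat-IIIa* also belong to *CG34106* on the same strand. HTSeq by default leaves out reads that fit more than 1 gene, and its level cannot be read from these counts. The call of *beat-IIIc* was lost without Control replicate 1 (0.25, adjusted p = 0.0787), Control replicate 2 (0.27, adjusted p = 0.0524), Control replicate 3 (0.23, adjusted p = 0.113) or E93RNAi replicate 2 (0.15, adjusted p = 0.128, all edgeR).

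*beat-VII* was lower by -0.18 (adjusted p = 0.0198, edgeR). It lost its call with library totals (-0.15, adjusted p = 0.0520, edgeR), with DESeq2 (-0.18, adjusted p = 0.0558), and without Control replicate 2 (-0.15, adjusted p = 0.0846), E93RNAi replicate 1 (-0.16, adjusted p = 0.0585) or E93RNAi replicate 3 (-0.18, adjusted p = 0.0607, edgeR). The members that were not called lay between -0.62 for *beat-Vc* and 0.88 for *beat-Ib*, both with few reads. *beat-Ib* gave 20, 11 and 9 reads in the Control libraries, against 26, 22 and 28 under E93RNAi (adjusted p = 0.0760), and without Control replicate 1 its log2 fold change was 1.33 (adjusted p = 0.0146, edgeR). *beat-IIa* and *beat-IIb* had 27 to 73 counts per library and were not called. The untested *beat-Ic*, *beat-Va*, *beat-Vb* and *beat-VI* had 0 to 9 counts in every library.

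All 8 Side genes were tested, with 3 higher and 3 lower. *side-III* gave 572, 696 and 717 reads in the Control libraries, against 488, 382 and 418 under E93RNAi (log2 fold change -0.65 ± 0.0974 SE, adjusted p = 0.000319, edgeR). *side-VII* was lower by -0.30 (adjusted p = 0.000231, edgeR), and *side-V* and *side-IV* were higher by 0.31 and 0.32. *side-VIII*, the member with the highest Control level per length, was lower by -0.20 (adjusted p = 0.0207, edgeR). The call of *side-VIII* was lost with library totals (-0.17, adjusted p = 0.0507), without Control replicate 3 (-0.17, adjusted p = 0.106) and without E93RNAi replicate 1 (-0.15, adjusted p = 0.0613, all edgeR). *side-IV*, which binds Beat-II proteins and overlaps antisense genes, had an adjusted p of 0.0510 without Control replicate 3 (0.26, edgeR). *side-VI*, a partner of Beat-V proteins, was not called (0.014 ± 0.0530 SE). *side-II*, a partner of Beat-VI, was not called at -0.23 ± 0.0784 SE (adjusted p = 0.0523). It passed with DESeq2's size factors (-0.23, adjusted p = 0.0467), with no filter (-0.23, adjusted p = 0.0494) and without E93RNAi replicate 1 (-0.28, adjusted p = 0.0315, all edgeR).

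Slit is a secreted repellent read by Robo receptors, whose combination sets the lateral position of axons. *sli* gave 3929, 4559 and 4411 reads in the Control libraries, against 4346, 4477 and 4263 under E93RNAi, and the groups overlapped (log2 fold change -0.011 ± 0.0507 SE). *robo1* was not called either, at 105 ± 3.11 and 110 ± 4.45 CPM (SD, n = 3), with a log2 fold change of 0.069 ± 0.0455 (adjusted p = 0.334, edgeR; ± SE). *robo3* gave 580, 610 and 651 reads in the Control libraries, against 796, 761 and 761 under E93RNAi (log2 fold change 0.30 ± 0.0584 SE, adjusted p = 0.00222, edgeR). *robo2* gave 129, 191 and 157 reads in the Control libraries, against 201, 249 and 238 under E93RNAi (log2 fold change 0.49 ± 0.123 SE, adjusted p = 0.0105, edgeR). Control replicate 2 reached nearly the lowest E93RNAi count of *robo2*, and without Control replicate 3 the adjusted p was 0.0510 (0.45, edgeR). *robo2* also overlaps an antisense gene, and 1241 of its 6206 exon bases overlap a long noncoding RNA gene on the same strand. Whether counting used strand is not given in the sources used here. *robo3*, *robo2* and *haf* follow each other along 2L with gaps of 83.5 kb and 134.7 kb, and all 3 were higher.

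Netrins attract axons through Frazzled and repel them when Unc-5 is present. *NetB* gave 772, 941 and 924 reads in the Control libraries, against 1021, 1135 and 1070 under E93RNAi (log2 fold change 0.26 ± 0.0581 SE, adjusted p = 0.00571, edgeR). The repulsive receptor *unc-5* was higher by 0.29 ± 0.0532 SE (adjusted p = 0.00149, edgeR), with an exon overlap with *Pms2* on the opposite strand. The attractive receptor *fra* gave 307, 334 and 390 reads in the Control libraries, against 394, 402 and 421 under E93RNAi and just missed the threshold (log2 fold change 0.21 ± 0.0717 SE, adjusted p = 0.0548, edgeR). It passed with library totals (0.24, adjusted p = 0.0341) and without Control replicate 3 (0.27, adjusted p = 0.0324, both edgeR). *NetA*, 32.1 kb from *NetB* on the X chromosome, had 0 to 7 counts and was not tested.

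Semaphorins are guidance ligands whose receptors are Plexins, and Sema1a also acts as a receptor in olfactory axons and projection neurons. *Sema1b* (FBgn0016059; BDGP6, 2R:17672839-17683499, minus strand) gave 2738, 2973 and 3152 reads in the Control libraries, against 4219, 4437 and 4283 under E93RNAi. The groups were 170 ± 3.08 and 242 ± 8.82 CPM (SD, n = 3), 1.43-fold higher (log2 fold change 0.51 ± 0.0430 SE, adjusted p = 2.56e-06, edgeR). *Sema5c* gave 83, 89 and 80 reads in the Control libraries, against 121, 153 and 147 under E93RNAi (log2 fold change 0.70 ± 0.129 SE, adjusted p = 0.00149, edgeR). *Sema2b* was higher by 0.33 ± 0.0624 SE (adjusted p = 0.00200, edgeR), whereas its neighbour *Sema2a* had overlapping groups (-0.029 ± 0.0545 SE). Their receptor *PlexB* was lower, with 963, 1055 and 1106 reads in the Control libraries against 847, 915 and 762 under E93RNAi (log2 fold change -0.34 ± 0.0700 SE, adjusted p = 0.00330, edgeR). *PlexB* overlaps an antisense gene. *PlexA*, the receptor for the class 1 Semaphorins, was not called at 298 ± 10.7 and 290 ± 16.7 CPM (SD, n = 3; adjusted p = 0.622, edgeR). *Sema1a* was not called at 0.17 ± 0.0597 SE (adjusted p = 0.0618), but passed with library totals (0.19, adjusted p = 0.0258), with no filter (0.16, adjusted p = 0.0378) and without E93RNAi replicate 3 (0.23, adjusted p = 0.010, all edgeR).

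Teneurins are homophilic receptors whose matching levels pair olfactory axons with projection neurons. *Ten-a* gave 1704, 2144 and 1954 reads in the Control libraries, against 2597, 2578 and 2431 under E93RNAi (log2 fold change 0.36 ± 0.0672 SE, adjusted p = 0.00168, edgeR). *Ten-m* gave 1337, 1672 and 1544 reads in the Control libraries, against 1446, 1531 and 1489 under E93RNAi, with overlapping groups (log2 fold change -0.060 ± 0.0585 SE, adjusted p = 0.528, edgeR). Per kb of exon the level of *Ten-a* was 0.980, 0.986 and 0.973 times that of *Ten-m* in the Control libraries, so the 2 genes were nearly level by this measure. In the E93RNAi libraries the ratio was 1.38, 1.29 and 1.26. In CPM, not scaled to length, the Control means were 111 for *Ten-a* and 87.2 for *Ten-m*. Each shares exon bases with a long noncoding RNA gene on the same strand (739 and 656 bases). Among the fasciclins, adhesion proteins of axon bundles, *Fas3* was higher by 0.25 ± 0.0498 SE (adjusted p = 0.00287, edgeR), and *Fas2* was not called at 0.047 ± 0.0428 SE. *Hs6st*, which adds 6-O-sulfate to heparan sulfate, was not called either (0.042 ± 0.0598 SE, adjusted p = 0.682, edgeR).

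**Figure D3:**
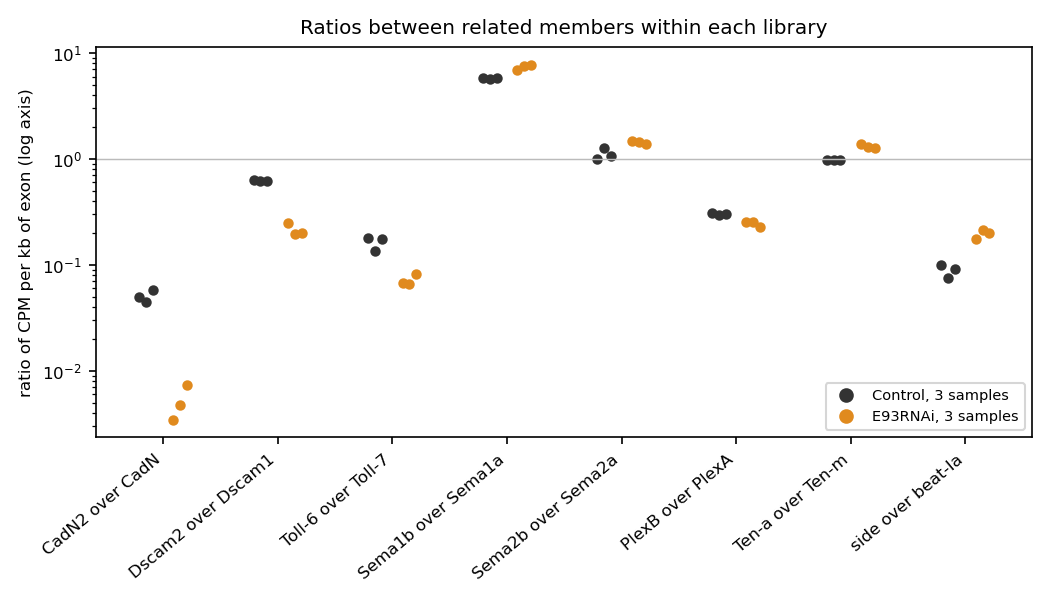
Ratio of levels per kb of exon between related members (log axis) in each of the 6 libraries. Levels are divided by all merged exons of a gene, so the size of a ratio also depends on annotated isoforms, most of all for *Dscam1*. The couples were picked with the fold changes known, so their separation is a description: *CadN2* over *CadN* falls from a mean of 0.0505 to 0.00519 and *Dscam2* over *Dscam1* from 0.622 to 0.215, while *Ten-a* over *Ten-m* rises from 0.980 to 1.31.

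Levels within the set were compared per kb of merged exon, which lowers genes with many alternative exons. In Control the most abundant members were *side-VIII* at 37.5 ± 1.57, *Sema1b* at 37.2 ± 0.675, *Fas2* at 30.3 ± 0.743, *caps* at 28.4 ± 0.852, *PlexA* at 28.1 ± 1.01 and *sli* at 25.7 ± 1.22 CPM per kb (SD, n = 3). The levels of *side-VIII* and *Sema1b* differed by less than their spread, as did those of *caps* and *PlexA*. In E93RNAi *Sema1b* stood first at 53.1 ± 1.93 CPM per kb, followed by *caps* at 32.8 ± 1.54 and *side-VIII* at 32.7 ± 2.36. Among the genes with the largest falls, *CadN2*, *Dscam4* and *Toll-6* were low to begin with, at 0.668, 0.277 and 0.790 CPM per kb in Control. *Dscam2* was not as low, at 4.09 CPM per kb and 52.8 CPM in Control. The summed level of all 60 members was 3322 to 3535 CPM in Control and 3445 to 3693 CPM in E93RNAi, and these ranges overlapped.

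**Figure D4:**
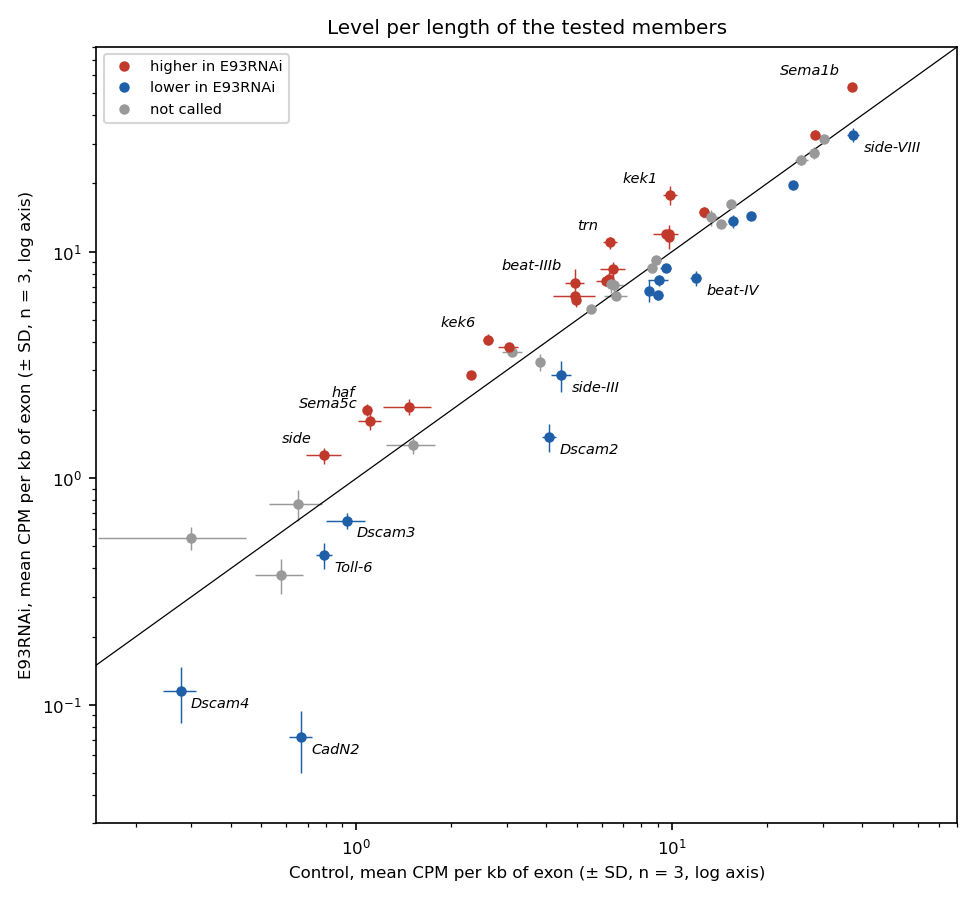
Mean level per kb of exon in Control (x axis) and E93RNAi (y axis) for the 54 tested members, both on log axes with SD of 3 samples; the line marks equal levels. *CadN2* (0.668 against 0.0721) and *Dscam2* (4.09 against 1.52) lie farthest below the line, while the rises, such as *kek1* from 9.88 to 17.8, keep closer to it.

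Other genes of the pathway were read from 3 lists, which held 85 genes found in the counts. Of the 84 tested, 22 were higher and 8 lower, 35.7% against 24.3% of all tested genes. The comparison was not matched by span, and 41.8% of tested genes that span at least 20 kb were called. Among 43 tested receptors and ligands outside the member set, 16 were higher and 6 lower, with a median log2 fold change of 0.077. The largest called rise was that of *wrapper*, a glial adhesion gene also on the glial marker list (2.19 ± 0.360 SE, adjusted p = 0.000655, edgeR). It was followed by *ImpL2*, a secreted binder of insulin-like peptides (1.79 ± 0.0794 SE, adjusted p = 8.43e-09, edgeR), and *drl* (Derailed), a Wnt5 receptor of axons (1.34 ± 0.0752 SE, adjusted p = 7.34e-08, edgeR). *drl* gave 175, 209 and 214 reads in the Control libraries, against 517, 516 and 510 under E93RNAi. The largest called falls were in *klg* (-0.49), *fz* (-0.39) and *rst* (-0.23), with adjusted p-values of 3.36e-06, 0.0217 and 0.0154 in edgeR.

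Of 31 tested genes for signal transduction in the growth cone, 6 were higher and 2 lower, a share near that of all tested genes. The tyrosine kinase gene *Abl*, which acts below Robo and other receptors, was higher by 0.45 ± 0.0491 SE (adjusted p = 2.71e-05, edgeR). The next called rises were those of the GTPase gene *Rac2* (0.27) and of *RhoGAP93B* (0.22), a GTPase-activating protein that binds Robo. *Nedd4*, a ubiquitin ligase gene, was lower by -0.18 and *LIMK1*, a kinase gene of actin control, by -0.16. Of the 10 genes for heparan sulfate synthesis and modification, 0 were called in edgeR or in DESeq2, and 0 had an unadjusted p below 0.05 in edgeR.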

How the data were processed

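The authors deposited, for each sample, a file of unnormalized counts of reads per FlyBase gene. The submitters' processing notes name cutadapt 1.8, STAR 2.5.3a, HTSeq 0.9.1 and the build BDGP6; the annotation release and the strand setting of the counting are not given in the sources used here. Per the labels' protocols, mRNA was isolated from 100 ng of total RNA with poly(A) selection and made into strand-preserving libraries. Reads outside single genes, 13.1% to 13.8% of each library, were left out of totals and tests.

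Members, lists and the rule for named genes were chosen with earlier results of these data known. By that rule, called members with an absolute log2 fold change of at least 0.5 are given in full, other called members by fold change, and uncalled members by the highest levels and the ends of each family's range. Symbols were matched for 17560 of 17698 identifiers. Exon lengths, spans, overlaps and coordinates came from the Ensembl release 115 annotation of BDGP6 (BDGP6.54), and levels per kb use merged exon length.

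Counts were tested with edgeR 4.0.16 (limma 3.58.1, R 4.3.3): filterByExpr, which kept 9237 genes, TMM scaling and the quasi-likelihood test on group, all 6 samples in the fit, with Benjamini-Hochberg adjustment over all tested genes. CPM are TMM-normalized, and SE were derived from the F statistic. The fit was tested on simulated data. Same-numbered samples deviated together (correlations of 0.151, 0.129 and 0.119 across 8103 genes), and the labels speak of pairs of replicates, so a fit with the replicate block was an alternative. The others were DESeq2 1.42.0, its size factors, library totals, other filters, a threshold of 0.01, and leaving out each sample.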

Additional observations from a re-analysis of the deposited data

How the results depend on the processing

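The count of called members was 36 in the main test and 35 to 38 under the other scalings, filters and DESeq2. Fits that each left out a sample gave 31 to 36 members, and 29 members passed an adjusted p of 0.01. In the fit with the replicate block 36 members were called, the same genes as without it, and 2430 genes in all. Among members whose exons overlap no other gene, 29 of 44 tested were called. Of the 36 called members, 28 passed in all 12 other fits. The other 8 are *Con*, *Dscam3*, *beat-IIIc*, *beat-VII*, *kek4*, *robo2*, *side-IV* and *side-VIII*, and no called member changed sign in any fit. The stricter threshold of 0.01 lowered the count of all called genes from 2248 to 1482 and that of the pathway lists from 30 to 18. Library totals moved the median of all genes to 0.027 on the log2 scale and the split of called members to 23 higher and 13 lower. Depth limits *beat-Ib*, *beat-Vc* and 5 of the 6 untested members, while the counts of *beat-IIIa* are limited by its exon overlap.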
